A study of Mus musculus with 3 samples.

Results

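Collagen chain genes were described in 3 RNA samples from female mice, each measured on 1 single-colour Agilent array. The members were all genes whose mouse symbol has the form Col, a type number, the letter a and a chain number. The symbols came from the RefSeq accession of each probe. The rule itself uses no measured value, but it was set with earlier results of these data known. Of 44 such symbols, 43 had a probe, out of 20542 genes with a probe in all, and Col12a1 had none that could be matched here. Of the 43 genes, 37 were well above background on at least 1 array, 32 on all 3 and 6 on none.

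Spleens that had received SiO2 (silica) gave the SiO2 spleen sample. The SiO2-3TF-3C spleen sample came from spleens given SiO2 together with 3TF-3C, a treatment that the labels do not spell out. Both kinds of spleen therefore carry the silica treatment, both were taken on day 82, and a spleen without silica was not analysed here. Normal liver served as the positive control. The labels state pools of 5 samples per group without saying whether the liver was pooled too, and neither strain nor age is named in the labels. With 1 array a group, no test between groups was possible, and differences are described by a 2-fold rule of size. Values after ± are the technical error of a log2 difference from the scanner software, and they leave out the spread between animals.

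Collagens are the main structural proteins of the extracellular matrix, and each molecule is a helix of intertwined chains that carry a glycine at regular intervals. Fibrillar collagens build the tension-bearing fibres, type IV forms the sheet of basement membranes, and the other types join fibres, membranes and cells to each other. In the spleen, reticular fibres made by fibroblastic reticular cells hold up the pulp, while in the liver stellate cells are the best known source of fibrillar collagen and the source that drives fibrosis.

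The tissue labels were checked first. The 10 hepatocyte markers summed to 1.51 in the SiO2 spleen, 249 in the SiO2-3TF-3C spleen and 606 in liver, in linear signal relative to the 75th percentile of each array, where Ttr and Apoa1 were too dim in the SiO2 spleen to stand well above background. The 10 B and T cell markers summed to 137, 97.1 and 55.5 and the 8 splenic reticular cell markers with a probe to 17.3, 13.7 and 6.60, in the same order, and all of them were well above background on all 3 arrays, liver included. Of 43020 spots, 77.2% to 81.3% were well above background, and the median SD between replicate spots of the same probe was 0.0752 to 0.0979 on the log2 scale. All levels below are log2 signals minus the 75th percentile of their array, so that 0 is that percentile, and they are compared only within a gene, because probes differ in brightness.

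Like most genes measured, the collagen chain genes differed little between the spleen samples, with the exception of Col18a1. Of 36 members with a value, 1 was higher by 2-fold or more in the SiO2-3TF-3C spleen, 0 were lower by as much and 35 lay in between. Among these 35, 2 are bounds (Col28a1 and Col6a6), because 1 of their arrays was not well above background. Their full difference may be larger. Over all 17636 genes measured, 5.24% were at least 2-fold higher and 1.39% at least 2-fold lower. The median log2 difference of the members was -0.20 against -0.15 for all genes, and 25 members lay below 0 and 11 above. Most genes measured also lay below 0, with 11572 below and 6064 above. The members' quartiles were -0.36 and 0.05, those of all genes -0.37 and 0.10. Without Col18a1 the members ran from -0.74 to 0.32. The sign of 11 of the 36 differences changed under at least 1 other processing (Col1a1, Col4a1, Col4a2, Col4a4, Col6a1, Col6a4, Col6a5, Col8a1, Col8a2, Col9a1 and Col14a1). In whole tissue, fewer cells of a type and less RNA per cell cannot be told apart.

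**Figure D1:**
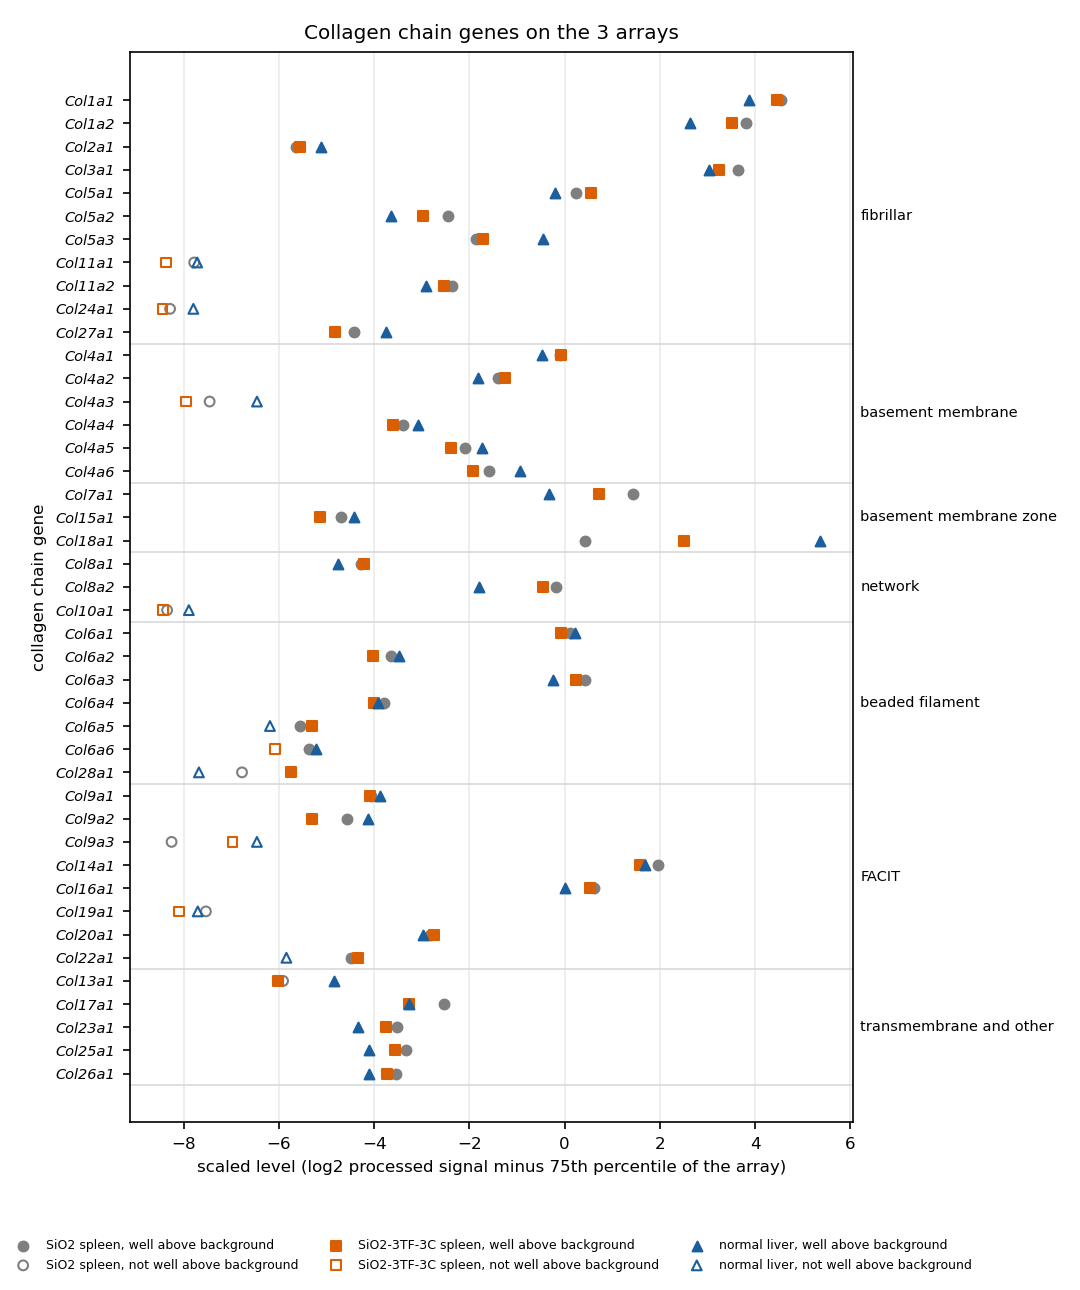
Signals of the collagen chain genes on the 3 arrays, as log2 signal minus the 75th percentile of the array, grouped by collagen type; a symbol is 1 array and open symbols are signals not well above background. Col18a1 stands at 0.43 in the SiO2 spleen, 2.51 in the SiO2-3TF-3C spleen and 5.37 in liver, and the symbols of the other genes lie closer together.

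Col18a1 encodes the chain of type XVIII collagen, a heparan sulphate proteoglycan of basement membranes whose end fragment is endostatin. Its level was 0.43 in the SiO2 spleen, 2.51 in the SiO2-3TF-3C spleen and 5.37 in liver. It was lowest in the SiO2 spleen, intermediate in the SiO2-3TF-3C spleen and highest in liver. The SiO2-3TF-3C spleen was 4.21-fold above the SiO2 spleen, a log2 difference of 2.07 ± 0.20, and liver was 30.6-fold above it (4.94 ± 0.20). A second probe of the gene gave levels of -0.17, 1.27 and 4.18 and differences of 1.44 and 4.35, so that both probes passed 2-fold in both comparisons. On the linear scale the SiO2-3TF-3C spleen lay 10.8% of the way from the SiO2 spleen to liver by the brightest probe and 8.86% by the other. The 10 hepatocyte markers lay between 8.67% (Tat) and 87.9% (Alb) of the way, with a median of 22.1%, and 8 of them lay further along than Col18a1. All 10 also passed 2-fold in the SiO2-3TF-3C spleen, and their part in the Col18a1 difference was not tested.

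RefSeq lists a pair of start sites for Col18a1 in its promoter table, on the minus strand of GRCm38.p6, and both are shown because Col18a1 is the member past 2-fold between the spleens. Each window of 300 bases runs from 250 bases before the start to 50 after it, 5′ to 3′ on the strand of the gene. Capitals mark matches, on either strand, to CCAAT (the CCAAT box), to GGGCGG (the GC box), to TATAAA (the TATA box) and to TGTTTAC (a forkhead motif). The upstream window, chr10:77166481-77166780, holds 1 CCAAT box and 3 GC boxes, and the downstream window, chr10:77113656-77113955, holds none of these motifs. The arrays do not tell which start was used.
Col18a1 upstream: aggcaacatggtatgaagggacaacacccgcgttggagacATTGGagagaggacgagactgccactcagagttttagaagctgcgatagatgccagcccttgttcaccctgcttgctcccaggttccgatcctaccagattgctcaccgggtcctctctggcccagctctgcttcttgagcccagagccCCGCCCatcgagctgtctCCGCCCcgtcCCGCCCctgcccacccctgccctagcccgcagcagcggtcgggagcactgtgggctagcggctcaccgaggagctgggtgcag
Col18a1 downstream: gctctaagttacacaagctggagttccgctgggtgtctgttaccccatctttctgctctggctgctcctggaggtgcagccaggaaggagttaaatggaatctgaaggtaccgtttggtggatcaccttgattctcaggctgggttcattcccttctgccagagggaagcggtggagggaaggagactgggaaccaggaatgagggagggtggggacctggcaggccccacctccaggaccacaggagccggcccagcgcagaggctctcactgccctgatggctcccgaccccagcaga

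The other members at the basement membrane zone did not share this order. Col7a1, the chain of the anchoring fibrils that fasten epithelial basement membranes, was at 1.43 in the SiO2 spleen, 0.72 in the SiO2-3TF-3C spleen and -0.33 in liver. It was highest in the SiO2 spleen and lowest in liver, with differences of -0.71 ± 0.20 between the spleens and -1.77 ± 0.20 (3.40-fold) in liver against the SiO2 spleen. Col15a1, the close relative of Col18a1, was dim on all 3 arrays at -4.70, -5.14 and -4.42. By its brightest probe it differed by -0.44 ± 0.30 between the spleens and by 0.28 in liver, with no difference of 2-fold. With normexp background correction the difference between the spleens was -0.0002. Its other probes gave 0.10 and 0.96 in liver. The probe at 0.96 gave a bound of -1.40 in the SiO2-3TF-3C spleen against liver, past 2-fold.

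Liver against the SiO2 spleen gives the size of the difference between the organs. Of 36 members with a value, 3 were at least 2-fold higher in liver (Col18a1, Col5a3 and Col13a1), 5 at least 2-fold lower (Col1a2, Col5a2, Col7a1, Col8a2 and Col22a1) and 28 in between. Of the members in between, Col6a5 is a bound and may differ by more. Over all 17355 genes, 15.4% were at least 2-fold higher and 17.0% at least 2-fold lower. The members' shares were 8.33% and 13.9%. Their median difference was -0.32 and that of all genes -0.14, with 22 members below 0 and 14 above. Among all genes 9755 lay below 0 and 7600 above. With normexp background correction both medians turned, to 0.073 for the members and 0.075 for all genes. The sign changed under at least 1 other processing for 8 of the 36 (Col6a4, Col6a6, Col8a1, Col8a2, Col14a1, Col20a1, Col25a1 and Col26a1). The 2 comparisons against the SiO2 spleen share that array, so a member measured too high or too low there moves in both.

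**Figure D2:**
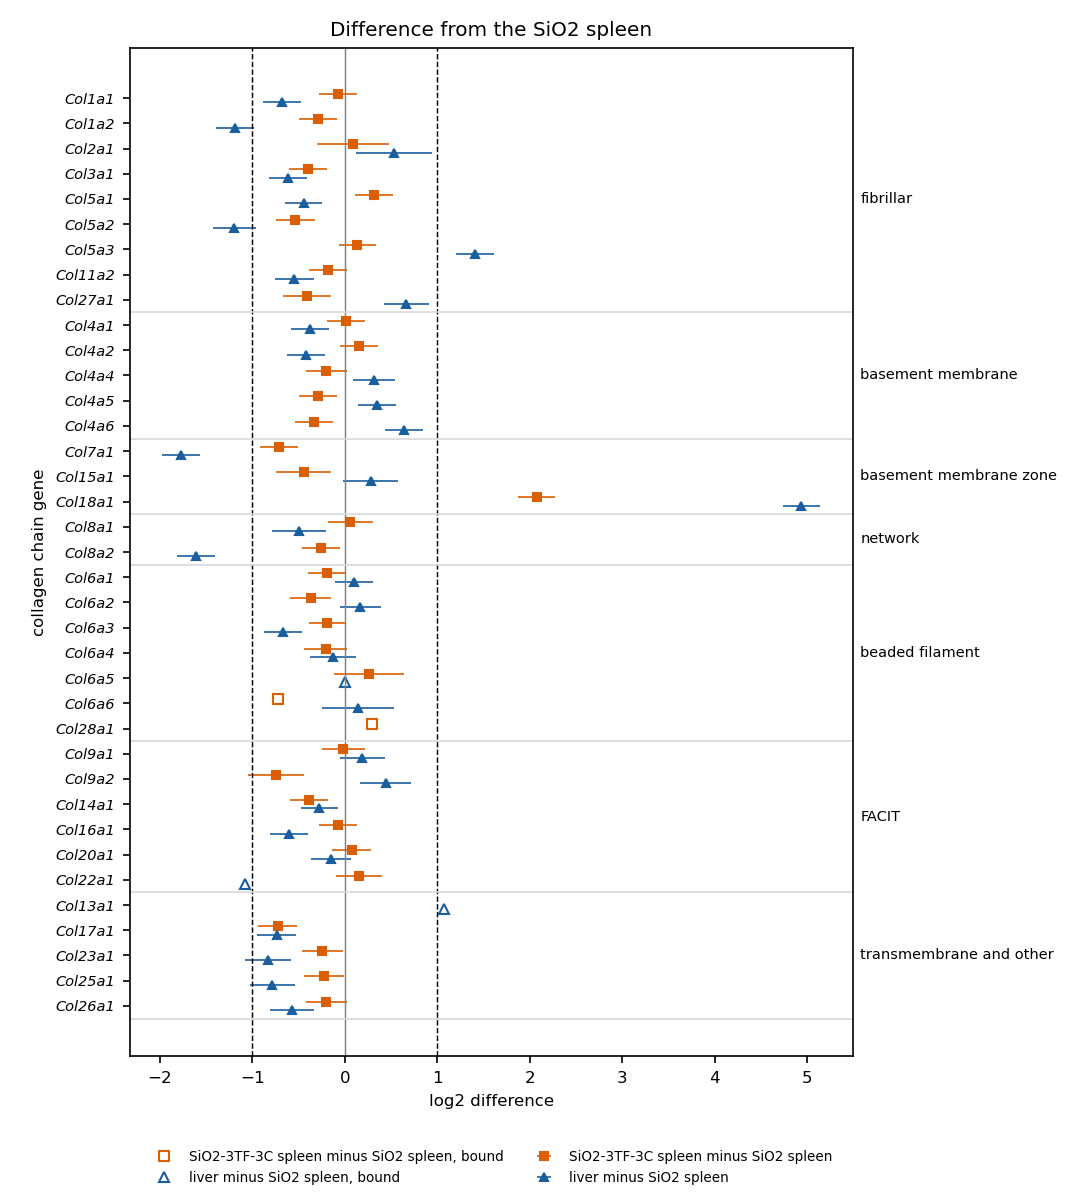
Log2 differences of each collagen chain gene from the SiO2 spleen, in the SiO2-3TF-3C spleen and in liver; bars are the technical error of the scanner software, open symbols are bounds, and dashed lines mark 2-fold. Col18a1 lies past 2-fold in both comparisons at 2.07 and 4.94, while Col1a2, Col5a2, Col7a1 and Col8a2 lie past it on the low side in liver.

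The fibrillar chains were near-level between the spleens and mostly lower in liver. Of 11 members 9 were measured, and none of the 9 passed 2-fold between the spleens (0 higher and 0 lower, median -0.18). Of all genes, 5.24% were at least 2-fold higher and 1.39% lower there. In liver 1 of 9 was at least 2-fold higher and 2 at least 2-fold lower (11.1% and 22.2%, beside 15.4% and 17.0% of all genes). The median of -0.55 stayed below 0 under all 10 other processings, from -0.86 to -0.33. The mean over all probes, the second brightest probe and the filter on all 3 arrays could not change it. These 9 chains have 1 probe each and were well above background on all 3 arrays. The -0.86 is from the authors' deposited table, which held 5 of the 9. Col1a1, one of the type I chains that make up most fibres, was at 4.55 in the SiO2 spleen, 4.47 in the SiO2-3TF-3C spleen and 3.87 in liver. The spleen values were close to each other and above liver, with differences of -0.08 ± 0.20 between the spleens and -0.68 ± 0.20 in liver. Its partner chain Col1a2 was at 3.82, 3.53 and 2.63, again highest in the SiO2 spleen and lowest in liver, and its liver difference was -1.19 ± 0.20. Col3a1, the chain of the type III collagen that dominates reticular fibres, was at 3.65, 3.25 and 3.04, or -0.40 between the spleens and -0.61 in liver.

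Type V chains regulate the width of type I fibrils, and they did not move together. Col5a1 was at 0.23, 0.55 and -0.21, with the SiO2-3TF-3C spleen highest by 0.32. Col5a2 was at -2.45, -2.98 and -3.64, lowest in liver by -1.19 ± 0.23 (2.29-fold). This call was lost with normexp background correction, at -0.33, and with no background subtraction, at -0.72. Col5a3 went the other way at -1.86, -1.72 and -0.45, with liver 2.66-fold above the SiO2 spleen (1.41) and the spleens 0.14 apart. RefSeq places Col5a2 next to Col3a1 with 0 protein-coding genes between them, and both were highest in the SiO2 spleen and lowest in liver. The cartilage chains were dim or not measured. Col2a1 was at -5.65, -5.56 and -5.12 and Col11a2 at -2.36, -2.54 and -2.91, neither past 2-fold, and Col11a1 and the developmental chain Col24a1 were not well above background on any array. Col27a1 was at -4.42, -4.83 and -3.76, or -0.41 ± 0.26 between the spleens and 0.66 in liver.

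The promoter of Col1a2 is shown because its product is the type I chain past 2-fold in liver. The window chr6:4505368-4505667 on the plus strand of GRCm38.p6 holds 2 CCAAT boxes and 2 GC boxes.
Col1a2: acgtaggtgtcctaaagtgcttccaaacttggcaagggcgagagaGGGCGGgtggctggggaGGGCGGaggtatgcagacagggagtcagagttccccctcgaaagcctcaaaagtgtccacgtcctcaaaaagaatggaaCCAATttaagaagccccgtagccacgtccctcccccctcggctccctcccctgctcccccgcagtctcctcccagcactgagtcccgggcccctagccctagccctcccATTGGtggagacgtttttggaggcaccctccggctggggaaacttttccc

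Markers of fibroblasts, hepatic stellate cells and smooth muscle cells were read beside the fibrillar chains. Fibroblast markers summed to 62.7 in the SiO2 spleen, 46.8 in the SiO2-3TF-3C spleen and 26.0 in liver, with all 10 well above background on all 3 arrays. Of these, 0 of 10 were past 2-fold between the spleens (median -0.27), and 9 of 10 were at least 2-fold lower in liver (median -1.39). Hepatic stellate cell markers summed to 6.45, 8.56 and 38.9, with Reln and Hhip too dim in the SiO2 spleen to stand well above background. Of 12, 1 passed 2-fold upward between the spleens (Colec11, at 2.79 ± 0.22) and 8 did in liver (median 1.70). Smooth muscle and pericyte markers summed to 18.5, 14.2 and 7.92, with Lmod1 not well above background on any array, and of 8 measured in liver 4 were lower by 2-fold or more and 1 was higher. Of all genes, 5.24% were at least 2-fold higher and 1.39% lower between the spleens, and 15.4% and 17.0% in liver. The part of fibroblasts, stellate cells and smooth muscle cells in the collagen values was not tested.

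Type IV chains form the basement membrane sheet, and their genes lie in head-to-head pairs. None of the 5 measured chains passed 2-fold in either comparison against the SiO2 spleen by its brightest probe (0 of 5 in each). Of all genes, 5.24% were at least 2-fold higher and 1.39% lower between the spleens, and 15.4% and 17.0% in liver. The ubiquitous chains Col4a1 and Col4a2 ran alike. Col4a1 was at -0.10, -0.08 and -0.47 and Col4a2 at -1.40, -1.25 and -1.82, so that both were level between the spleens (0.01 and 0.15) and slightly lower in liver (-0.37 and -0.42). Col4a1 was printed in 10 spots per array, with SDs of 0.0578, 0.0575 and 0.0832 in the 3 samples. The pair Col4a5 and Col4a6, found in the basement membranes of kidney and smooth muscle, ran the other way. Col4a5 was at -2.09, -2.38 and -1.74 and Col4a6 at -1.59, -1.92 and -0.94, both lowest in the SiO2-3TF-3C spleen and highest in liver (0.35 and 0.64 above the SiO2 spleen). Another probe of Col4a6 gave 0.092 in liver and -0.16 between the spleens. Col4a4 was at -3.39, -3.60 and -3.08 by its brightest probe, a liver difference of 0.32, while another probe gave 2.53 in liver and 0.66 between the spleens. Its neighbour Col4a3 was not well above background on any array.

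Col4a1 and Col4a2 are transcribed away from each other from a shared stretch, and their RefSeq windows on GRCm38.p6 overlap by 78 of 300 bases. The Col4a1 window is chr8:11312777-11313076 on the minus strand, with 1 CCAAT box and 1 GC box. The Col4a2 window is chr8:11312555-11312854 on the plus strand, with 1 CCAAT box and 3 GC boxes. Both are shown because these genes ran alike on the 3 arrays, and capitals mark the motifs as above.
Col4a1: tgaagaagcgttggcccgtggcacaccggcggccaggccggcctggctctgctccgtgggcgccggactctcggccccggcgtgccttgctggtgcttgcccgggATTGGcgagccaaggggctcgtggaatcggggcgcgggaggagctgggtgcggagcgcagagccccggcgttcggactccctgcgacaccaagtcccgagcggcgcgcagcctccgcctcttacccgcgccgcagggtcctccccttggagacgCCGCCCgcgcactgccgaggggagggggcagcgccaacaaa
Col4a2: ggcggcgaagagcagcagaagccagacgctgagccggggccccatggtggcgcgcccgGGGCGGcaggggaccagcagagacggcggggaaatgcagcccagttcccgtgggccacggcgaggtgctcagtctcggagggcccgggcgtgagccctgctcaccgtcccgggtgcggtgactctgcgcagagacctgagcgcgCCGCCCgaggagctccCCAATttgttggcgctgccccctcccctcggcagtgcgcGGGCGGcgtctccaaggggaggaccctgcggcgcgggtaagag

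Of the 43 members 35 had an entry in the promoter table, with 38 windows. A GC box was in 60.5% of these 38 windows and in 35.7% of all 32851 windows of the same length, and the median GC content was 59.8% against 52.7%. The CCAAT box was in 34.2% against 37.4%, the TATA box in 13.2% against 13.6% and the forkhead motif in 2.63% (Col6a1) against 3.65%. These matches describe letters in the windows and not binding.

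Network-forming type VIII collagen occurs under vascular and corneal endothelium, and its chains Col8a1 and Col8a2 were the network members measured. Col8a1 was at -4.27, -4.21 and -4.77, with no difference of 2-fold. Col8a2 was at -0.19, -0.45 and -1.80 by its brightest probe, with liver 3.05-fold below the SiO2 spleen (-1.61 ± 0.21). Its other probe was at -4.31, -4.31 and -3.46 and gave 0.85 in liver, the opposite direction, so the direction for Col8a2 depends on the probe. Col10a1, the chain of hypertrophic cartilage, was not well above background on any array.

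**Figure D3:**
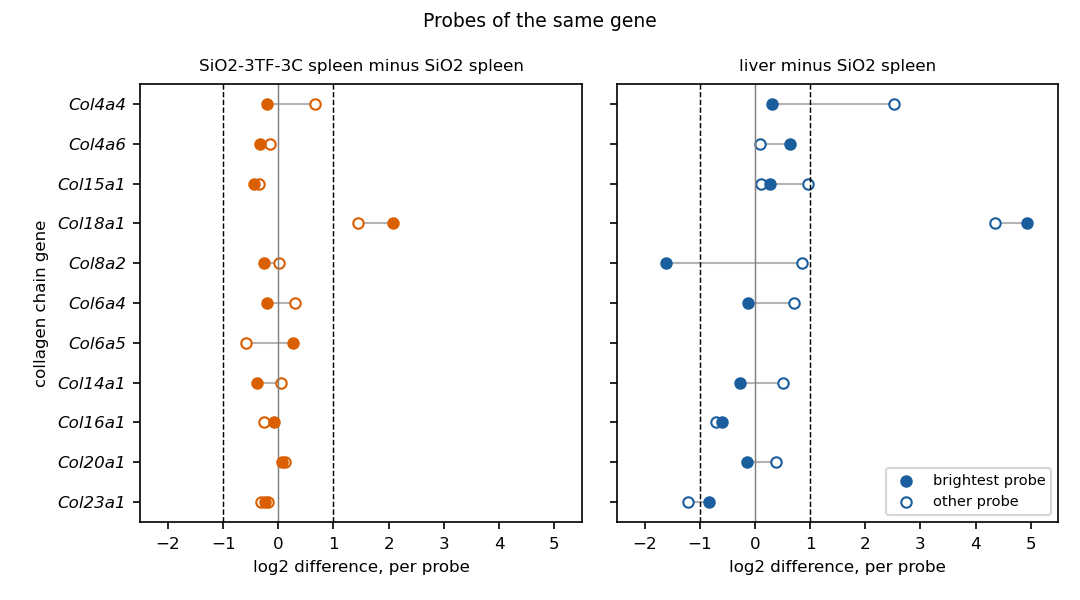
Log2 differences per probe for collagen chain genes with several probes well above background on both arrays; filled symbols are the brightest probe of a gene, open symbols its other probes, and dashed lines mark 2-fold. Probes of a gene lie within 1 log2 of each other between the spleens, and in liver the probes of Col4a4 (0.32 and 2.53) and Col8a2 (-1.61 and 0.85) do not.

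As over all genes, probes of the same member agreed more closely between the spleens than between organs. A spread of over 1 on the log2 scale was seen in 0 of 11 members between the spleens and in 2 of 10 in liver against the SiO2 spleen. Over all genes with several measured probes this spread was seen in 4.81% and 19.6%.

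Type VI collagen forms beaded filaments around cells. None of the 7 members of this class was counted past 2-fold between the spleens (0 of 7), and 0 of 6 in liver. Of all genes, 5.24% were at least 2-fold higher and 1.39% lower between the spleens, and 15.4% and 17.0% in liver. The values of Col28a1 and Col6a6 between the spleens and of Col6a5 in liver are bounds, which cannot show a difference below 2-fold. Without the bound, Col28a1 was at 1.03 between the spleens. Col6a1 was at 0.12, -0.08 and 0.21 and Col6a2 at -3.66, -4.03 and -3.49, both lowest in the SiO2-3TF-3C spleen by small amounts (-0.19 and -0.37). Col6a3 was at 0.42, 0.23 and -0.25, lowest in liver by -0.67. Col6a4 was at -3.79, -3.99 and -3.91, and its other probe gave 0.29 between the spleens against -0.21 and 0.71 in liver against -0.13. The others were near the detection limit. Col6a5 was at -5.57 and -5.30 in the spleens and not well above background in liver, and its other probe gave -0.58 between the spleens against 0.26. Col6a6 was at -5.36 in the SiO2 spleen, at least 1.65-fold lower with 3TF-3C and at -5.22 in liver (-0.051 between the spleens with normexp background correction), and Col28a1, the chain of the related type XXVIII, was measured in the SiO2-3TF-3C spleen alone (-5.74), at least 1.23-fold higher. RefSeq lists Col6a1 and Col18a1 with 2 protein-coding genes between them, and the Col6a1 difference of -0.19 stands beside 2.07 for Col18a1.

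FACIT chains sit on the surface of fibrils. Of 8 with a probe 6 were measured. Between the spleens 0 of 6 passed 2-fold, beside 5.24% of all genes higher and 1.39% lower by as much. Col14a1, which binds to type I fibrils, was at 1.97, 1.58 and 1.69, highest in the SiO2 spleen by its brightest probe (-0.38 and -0.27). Its other probe was at -2.45, -2.40 and -1.93, lowest in the SiO2 spleen (0.04 and 0.51), so the direction for Col14a1 depends on the probe. Col16a1 was at 0.61, 0.54 and 0.01, lowest in liver by -0.60. The type IX chains are best known from cartilage. Col9a1 was at -4.07, -4.09 and -3.88, and Col9a2 at -4.57, -5.31 and -4.13, the lowest difference among the members between the spleens (-0.74 ± 0.30), which was -0.02 with normexp background correction. Col20a1 was at -2.83, -2.75 and -2.98, and its other probe gave 0.39 in liver against -0.15. Col22a1, found at tissue junctions such as those of muscle and tendon, was at -4.50 and -4.34 in the spleens and not well above background in liver, which makes it at least 2.11-fold lower in liver. With no background subtraction that value was -0.23. Col9a3 and Col19a1 were not well above background on any array.

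Membrane-spanning chains anchor epithelial and neural cells. Col17a1, a hemidesmosome component, was at -2.53, -3.26 and -3.27, highest in the SiO2 spleen (-0.72 and -0.74, or -0.39 and -0.23 with normexp background correction). Col23a1 at -3.51, -3.76 and -4.34 and Col25a1 at -3.33, -3.55 and -4.11 were both lowest in liver (-0.83 and -0.78), as was Col26a1, a secreted chain, at -3.53, -3.73 and -4.11 (-0.57). With normexp background correction these liver differences shrank to -0.048 for Col23a1, -0.062 for Col25a1 and 0.038 for Col26a1, so the order of the samples depends on the background correction. Another probe of Col23a1 gave -1.22 in liver and 1.03 in the SiO2-3TF-3C spleen against liver, both past 2-fold. The remaining Col23a1 probe was dim in liver, with a bound of -0.048 against the SiO2 spleen. Only 1 of the 4 probes of Col25a1 was well above background on any array. Col13a1, a chain of cell junctions, was at -6.02 in the SiO2-3TF-3C spleen and -4.84 in liver. Its signal in the SiO2 spleen was not well above background, so that it was at least 2.10-fold higher in liver. That call was lost with normexp background correction (0.59), quantile normalization (0.90) and no background subtraction (0.69).

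The remaining comparison set the SiO2-3TF-3C spleen against liver, and it shares both its arrays with the comparisons above. Of 36 members, 3 stood 2-fold or more above liver, 5 as far below it and 28 in between, beside 10.7% and 15.9% of all 17209 genes. Of the members in between, Col6a5 and Col6a6 are bounds and may differ by more. The members' median was 0.22 and that of all genes -0.03. The members' median turned negative under 4 of 10 other processings, down to -0.12, and the number at least 2-fold lower ran down to 2. The sign of 10 members changed under at least 1 other processing. Col18a1 was 7.28-fold lower than in liver (-2.86 ± 0.20). Col5a3 was at -1.27, Col9a2 at -1.18, Col13a1 at -1.17 and Col27a1 at -1.07. Of these the last 3 fell short of 2-fold with normexp background correction, at -0.55, -0.49 and -0.56. On the other side Col8a2 was at 1.35, Col7a1 at 1.06 and Col22a1 at least 2.34-fold higher. Col7a1 was at 0.84 with normexp background correction, Col22a1 at 0.01, and Col8a2 at -0.84 by its second brightest probe. Col1a2 was at 0.90 and at 1.23 in the authors' deposited table, and it also passed 2-fold with normexp background correction and with quantile normalization. Col1a1 was at 0.60 and at 1.02 in the authors' deposited table. On the low side Col4a4 was at -0.52 and at -1.87 by its second brightest probe. Col4a6 was at -0.97 and at -1.01 with housekeeping scaling.

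Chaperones and modifying enzymes prepare the chains for folding. Of 20 such genes 1 was higher between the spleens by 2-fold or more and 1 lower (median 0.00), beside 5.24% and 1.39% of all genes. Tmem38b, an ion channel of the endoplasmic reticulum needed for type I collagen, was at 1.12 ± 0.22, and Plod2, a lysyl hydroxylase, at -1.03 ± 0.27. In liver 5 were at least 2-fold higher and 3 at least 2-fold lower (median 0.61), beside 15.4% and 17.0% of all genes. P4hb, a subunit of prolyl 4-hydroxylase that is also protein disulphide isomerase, was at 3.02, whereas the collagen chaperone Serpinh1 was at -1.05 and Fkbp10 at -1.24.

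Procollagen is then trimmed and crosslinked outside the cell. Of 13 genes of these steps 1 was at least 2-fold higher between the spleens and 0 lower (median -0.17, beside 5.24% and 1.39% of all genes). It was the lysyl oxidase Loxl4, at -4.99 in the SiO2 spleen, -3.27 in the SiO2-3TF-3C spleen and 0.75 in liver. Like Col18a1 it was lowest in the SiO2 spleen and highest in liver, with differences of 1.71 ± 0.26 and 5.74 ± 0.26. In liver 2 of 11 were at least 2-fold higher, the other being the procollagen C-proteinase Bmp1 (2.45), and 2 were lower, Lox (-1.25) and Adamts14 (-1.24). The shares of all genes in liver were 15.4% and 17.0%.

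Collagen receptors were not past 2-fold between the spleens (0 of 10, median 0.05), with Itga1 at -0.89 and Ddr1 at -0.69 the lowest. In liver 4 of 10 were at least 2-fold lower and 0 higher (median -0.83), among them Itga1 at -1.82, Ddr1 at -1.65 and Itga11 at -1.44. Of all genes, 17.0% were at least 2-fold lower and 15.4% higher in liver, and 1.39% and 5.24% between the spleens. Of 20 fibril-associated proteins 0 passed 2-fold between the spleens (median -0.27). In liver 3 were at least 2-fold higher and 3 lower, with Fn1 (fibronectin) at 1.90, the fibril-binding proteoglycans Dcn at 1.88 and Lum at 1.14, and Dpt at -1.63 and Aspn at -1.44.

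Of 23 basement membrane partners 0 passed 2-fold between the spleens (median -0.25). In liver 4 were at least 2-fold higher and 5 lower, with the laminin chain Lama1 at 3.63 and Smoc1 at 3.24 against Smoc2 at -1.45 and Lama2 at -1.25. Of all genes, 5.24% were at least 2-fold higher and 1.39% lower between the spleens, and 15.4% and 17.0% in liver. Of 21 genes of collagen transcription 1 was at least 2-fold higher between the spleens and 1 lower (median -0.33). These were Sox6 at 2.59 ± 0.25 and Sox5 at -1.44 ± 0.20, both partners of Sox9 in cartilage. Sox9 itself was at 0.52 between the spleens and 3.36 in liver, and Ccn2, a target of TGF-beta signalling, was at -0.45 and -1.47.

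**Figure D4:**
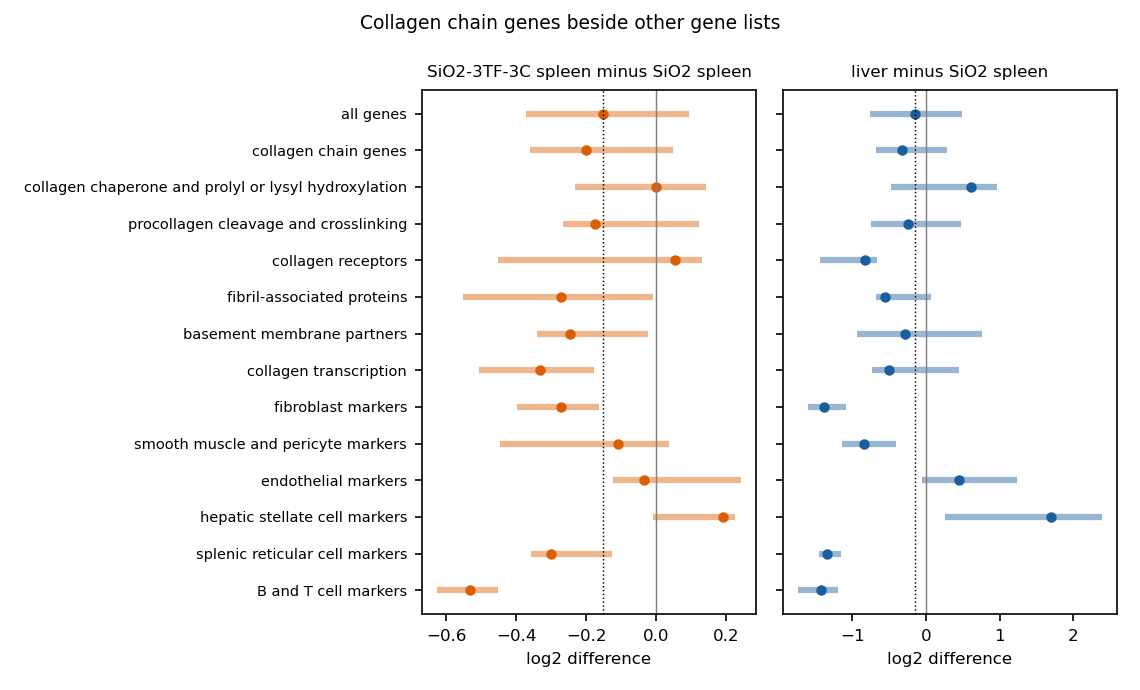
Median log2 difference from the SiO2 spleen for the collagen chain genes, for lists of related genes and for cell type markers, in the SiO2-3TF-3C spleen and in liver; dots are medians, bars run between the quartiles, and the dotted line is the median of all genes. The collagen chain genes lie at -0.20 and -0.32 beside -0.15 and -0.14 for all genes, and the fibroblast markers at -0.27 and -1.39.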

How the data were processed

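RNA from the SiO2 spleen, from the SiO2-3TF-3C spleen and from normal liver was hybridised with Cy3 to 1 array each, on the same slide in the same scan at different positions. Per the labels' protocols, RNA was made with a blood RNA kit and globin messages were depleted. The labels do not say how that kit was used on solid tissue. The deposited scanner files hold linear intensity values that the authors' scanner software had background-subtracted and detrended. Per the file headers this was Feature Extraction 11.0.1.1 on array design 026655 with build mm9, while the submitters' processing notes name version 9.1. The authors' deposited series table holds log2 values for 26049 probes, among them the probes of 28 members, and correlated at 0.993 to 0.996 with the log2 intensity of its own arrays. Its column medians were all 5.91 and its highest value was the same on each array, at 16.6. It is not centred on 0, and the labels and headers do not state how it was normalized.

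Processed signals were averaged over the spots of a probe without control and flagged spots, taken as log2, and scaled by subtracting the 75th percentile of each array (intensities of 569, 515 and 390 in the sample order above). No spot was saturated (0 on each array). Of 39112 probes 69.1% could be named through RefSeq accessions of the GRCm38.p6 gene table, which was used for names and neighbours only. A gene is represented by its brightest probe over the 3 arrays. Where only 1 array of a comparison was well above background, the difference is a bound, whose dim side is set to its own signal or, if higher, to the faintest signal that passed that array's background test (-6.04, -6.20 and -5.57 in the same order). Genes dim on both arrays, or whose bound gives no fold, have no value. Promoters are from the RefSeq table on GRCm38.p6.

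Members and lists were chosen with earlier results of these data known. All members well above background on at least 1 array are named with their values, and of each list at most the 3 highest and 3 lowest differences per comparison with the SiO2 spleen among genes measured on both arrays. With 1 array a group, there was no test, and precision is limited by the number of arrays. The calculations were tested on simulated data. The other settings were normexp (offset 50), quantile normalization, scaling by housekeeping genes or by the array median, the authors' deposited table, the mean over all probes, genes well above background on all 3 arrays only, and no filter on dim probes. The mean signal that the normexp and no background subtraction settings were planned on was not used here, and the median signal took its place. That change and the second brightest probe were chosen after seeing the data. Python 3.11.15, pandas 2.3.3, R 4.3.3 and limma 3.58.1 were used.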

Additional observations from a re-analysis of the deposited data

How the results depend on the processing

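Of 1021 values of single members under 10 other processings, 906 moved by less than the technical error, 113 moved by more and 2 past 2-fold turned. The 2 were Col8a2 by its second brightest probe, at 0.85 in liver against the SiO2 spleen and -0.84 in the SiO2-3TF-3C spleen against liver. Many of the 906 could not move further. The filters on dim probes leave a difference measured on both arrays unchanged, and the probe settings leave members with 1 probe unchanged. Median and housekeeping scaling shift all genes of a comparison by the same amount, below the technical error. Col18a1 kept its call in all 10 for all 3 comparisons. Between the spleens the members' median ran from -0.27 to -0.05 and 0 members were at least 2-fold lower in any of the 10, while with no filter on dim probes 3 were at least 2-fold higher (Col18a1, Col28a1 and Col9a3).

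In liver against the SiO2 spleen, 3 members were at least 2-fold lower with normexp background correction and 3 with no background subtraction, and the median was 0.073 with normexp (all genes 0.075) and -0.11 with the mean over all probes. For the SiO2-3TF-3C spleen against liver, the number at least 2-fold lower was 2 with normexp, 3 with quantile normalization, 3 in the authors' deposited table and 2 with no background subtraction, and the number higher was 1 with no background subtraction. That median was -0.12 with normexp, -0.082 with no filter, -0.054 with no background subtraction and -0.12 by the second brightest probe. The cause of these changes was not tested. Its all-gene median moved by -0.14 with normexp, 0.12 with quantile normalization and 0.14 in the authors' deposited table, and that of liver against the SiO2 spleen by 0.22 with normexp and 0.12 with no background subtraction.

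Over all genes, 591 (normexp) against 924 were at least 2-fold higher between the spleens, and 40 (normexp), 79 (no background subtraction), 156 (authors' deposited table), 161 (well above background on all 3 arrays) and 555 (no filter) against 245 lower. In liver against the SiO2 spleen 1634 against 2946 were lower with normexp, and for the SiO2-3TF-3C spleen against liver 863 (normexp) and 1220 (no background subtraction) against 1847 were higher. The share of higher among the calls between the spleens was 79.0%, and 93.7% with normexp, 90.4% with no background subtraction and 67.9% with no filter. No paired analysis was possible because each group has 1 array.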

Other observations

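Cartilage and bone, muscle, mesothelial and red cell markers were checked because several collagen chains are known from those tissues. Of 5 cartilage and bone markers measured, 0 were higher and 1 lower by 2-fold or more between the spleens, and Matn1, Hapln1 and Ibsp were not well above background on any array. Of 10 skeletal muscle markers 4 were lower by 2-fold or more between the spleens (median -0.53), with Myl1 at -1.85 and Myh1 at -1.82, while the junction chain Col22a1 was at 0.15. Of 4 mesothelial markers with a value 1 was at least 2-fold higher, the surface protein Msln at 2.86 ± 0.24. Krt7 was at 0.02 and Wt1 at -0.53, and 3 of the 4 lay above 0 and 1 below. The mesothelial list summed to 1.94 in the SiO2 spleen and 1.61 in the SiO2-3TF-3C spleen. Upk3b, Upk1b and Lrrn4 were not well above background in either spleen. Erythroid markers were at least 2-fold higher for 8 of 10 in the SiO2-3TF-3C spleen (median 1.94) and at least 2-fold lower for 6 of 10 in liver (median -1.15). Of all genes, 5.24% were at least 2-fold higher and 1.39% lower between the spleens, and 17.0% were lower in liver. Endothelial markers come from the cells that lie on type IV and type XVIII collagen. They summed to 29.1 in the SiO2 spleen, 30.0 with 3TF-3C and 47.2 in liver, with all 10 well above background on all 3 arrays. Their medians were -0.03 between the spleens and 0.46 in liver against the SiO2 spleen. Between the spleens 1 of 10 was at least 2-fold higher and 0 lower. In liver 3 were higher and 0 lower by as much, beside 15.4% and 17.0% of all genes. The marker past 2-fold between the spleens was Clec4g, at 1.37 in the SiO2 spleen, 2.38 in the SiO2-3TF-3C spleen and 4.17 in liver. This is the same order as for Col18a1, and the part of endothelial cells in the Col18a1 difference was not tested.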
